A study of Homo sapiens with 4 samples.

Results

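The genes described here are 10 genes of bone morphogenetic protein (BMP) signaling in HGC-27 cells, an established gastric carcinoma cell line. They were taken from a fixed list of symbols and all 10 were found among the 63568 gene identifiers of the count files. ID1, ID2, ID3 and ID4 are the ID genes, BMP2 and BMP4 encode ligands, BMPR1A and BMPR2 encode receptors, and SMAD6 and BAMBI encode inhibitors of the pathway. The values came from RNA-Seq of 2 libraries of cells with Control shRNA and 2 libraries of cells with USP47 shRNA, and both groups had been infected with lentivirus and selected with puromycin for stable expression of the hairpin. The methods describe RNA taken in triplicate, and 2 libraries per group were analysed here. The study used this comparison to look for pathways that respond to loss of USP47, a deubiquitinating enzyme. The study made knockdown lines with 2 independent hairpins and speaks of shRNAs in the plural for the RNA-Seq, but the sources used here do not tie a hairpin to a library or say whether the infections were separate, so the spread between libraries of a group may be partly technical.

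BMP ligands assemble type I receptors such as BMPR1A with type II receptors such as BMPR2. The active type I receptor phosphorylates SMAD1, SMAD5 and SMAD9, which join SMAD4 and enter the nucleus, where the ID genes, SMAD6 and SMAD7 are among the best known target genes. ID proteins have a helix-loop-helix domain without a DNA-binding region, so they bind E proteins such as TCF3 and keep them from DNA. SMAD6 blocks the receptor and SMAD steps from inside the cell, and BAMBI is a membrane pseudoreceptor that has no kinase domain.

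The binding sequences that SMAD proteins of this pathway are known to use were looked for in the 3000 bases before each gene start, because the ID genes, SMAD6 and BAMBI are the members that this signal is known to act on. The letters searched were GGCGCC, which reads the same on both strands, the palindrome GTCTAGAC, and, on both strands, a composite of GGCGCC followed after any 5 bases by GTCT, which overlaps the first motif. GGCGCC was found before 9 of the 10 genes, all but BMP2, and before 47.4% of 20175 protein-coding genes. Each of the 4 ID genes held it once. The stretches below are written 5′ to 3′ on the strand of the gene, with the motif letters in capitals, from GRCh37, the build of the files. They lie at chr20:30192087-30192172 for ID1, 959 bases before its start, at chr2:8816628-8816713 for ID2, 2307 bases before, at chr1:23888909-23888983 for ID3 on the minus strand, 2961 bases before, and at chr6:19837053-19837138 for ID4, 508 bases before.
ID1: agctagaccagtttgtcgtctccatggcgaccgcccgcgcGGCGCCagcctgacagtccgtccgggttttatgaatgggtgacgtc
ID2: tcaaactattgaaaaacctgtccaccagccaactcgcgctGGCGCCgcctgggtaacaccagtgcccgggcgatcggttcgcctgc
ID3: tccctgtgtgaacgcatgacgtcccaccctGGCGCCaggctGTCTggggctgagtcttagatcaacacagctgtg
ID4: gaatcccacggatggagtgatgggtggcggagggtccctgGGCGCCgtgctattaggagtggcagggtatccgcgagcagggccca

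ID3 held the composite, in which the same GGCGCC is followed by GTCT after a gap, and this composite was found before 0.322% of protein-coding genes. No other of the 10 members held it. The palindrome GTCTAGAC was found before SMAD6 and before no other member, 12 bases from its start at chr15:66994532-66994573, and before 1.83% of protein-coding genes. In the shorter RefSeq windows of build GRCh38.p14, which span 250 bases before to 50 bases after the start and were found for 9 members (all but BMP2), 71 of 35116 windows held it, 0.202%. In these windows GGCGCC was found for BMP4, BMPR2 and BAMBI, for no ID gene and not for SMAD6, and in 19.2% of all windows. In GRCh37 BAMBI held 3 copies of GGCGCC close together on the plus strand at chr10:28966226-28966289, the first of them 198 bases before its start. Over the whole 3000 bases BAMBI held 5 copies, BMPR1A 6, SMAD6 4, BMPR2 3 and BMP4 1. The share of all protein-coding genes with several copies, or with copies this close together, was not computed.
SMAD6: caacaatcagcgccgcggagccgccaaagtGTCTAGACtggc
BAMBI: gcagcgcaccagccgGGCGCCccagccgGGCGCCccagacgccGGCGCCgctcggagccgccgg

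These matches describe the letters of the reference, and binding was not measured here.

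The libraries held between 15649899 and 20140273 counts on genes. USP47 itself was counted 1357 and 1297 times with Control shRNA and 749 and 309 times with USP47 shRNA, which left 49.3% and 29.5% of the mean control level. The marker check went against an epithelial profile. The summed level of 7 epithelial markers was between 3.22 and 3.57 TPM (a level per transcript length and library, as the authors deposited it) with Control shRNA and was 1.76 and 1.49 with USP47 shRNA, and the keratin genes KRT18 and KRT19 had at most 1 count in any library. The sum of 5 fibroblast markers, led by COL3A1 and COL1A1, was 584 and 516 TPM with Control shRNA and 522 and 521 TPM with USP47 shRNA, while 5 leukocyte markers summed to at most 4.12 TPM. Of 6 gastric markers, 5 stayed under 30 counts in every library, and 5 mesenchymal markers, led by VIM, summed to between 146 and 192 TPM. VIM alone had between 103 and 137 TPM, while CDH2 of the same list had at most 10 counts in any library and was not tested. Among the tested markers 2 of 5 epithelial (EPCAM, CLDN7), 1 of 4 mesenchymal (FN1) and 2 of 5 fibroblast genes (COL1A1, PDGFRA) fell with USP47 shRNA and none rose. By the same test, given below, 9.56% of all genes tested fell and 6.52% rose. EPCAM rests on 12 and 11 counts against 3 and 3. The part of these cell type markers in the results on the BMP genes was not tested.

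On the TPM scale, ID1 and ID3 were the most abundant of the 10 genes. ID1 stood at 61.0 ± 1.76 TPM (SD, n = 2) and ID3 at 58.2 ± 0.706 TPM (SD, n = 2) with Control shRNA, and both ID1 libraries lay above both ID3 libraries. BAMBI followed with 15.4 ± 0.684 TPM (SD, n = 2), then BMPR2 with 15.2 ± 2.01 TPM (SD, n = 2), and these neighbours overlapped. SMAD6, BMPR1A and ID2 lay together between 11.1 and 11.5 TPM on average, each overlapping the next. BMP4 had 5.94 ± 0.389 TPM (SD, n = 2) and BMP2 had 2.07 ± 0.310 TPM (SD, n = 2), so the ligands were the least abundant of the members with more than a few reads. ID4 had 0 and 1 counts with Control shRNA and 1 and 2 counts with USP47 shRNA, too few for a test or a fold, and it is the member without a test in what follows. With USP47 shRNA the order began again with ID1, at 76.8 ± 12.0 TPM (SD, n = 2), and ID3, at 52.4 ± 8.51 TPM (SD, n = 2). ID2 then stood next, but ID2, SMAD6, BMPR2 and BAMBI overlapped as neighbours in that group.

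Of the 9 members tested, 1 rose with USP47 shRNA, ID1, and none fell. The test was edgeR's quasi-likelihood test of both directions over 21932 genes, with a gene called at a Benjamini-Hochberg adjusted p under 0.05. By this rule 16.1% of all genes tested were called, 6.52% higher and 9.56% lower. At an unadjusted p under 0.05, 4 of the 9 members passed, ID1, ID2, BMPR1A and BAMBI, beside 32.1% of all genes tested. The median log2 fold change of the 9 members was -0.040, beside -0.0083 for all genes tested, with 4 above 0 and 5 below 0. In CPM (counts scaled to the library total after TMM normalization) the libraries of the groups did not overlap for 6 of the 9 members, and for 61.0% of all genes tested. On the TPM scale they did not overlap for 4 of the 9 members, and the share over all genes was not computed. All fold changes are of USP47 shRNA against Control shRNA, and in bulk RNA a lower level per cell cannot be told apart from fewer cells that express the gene. Intervals of log2 fold changes are 95% intervals of a single gene, not adjusted for the number of genes.

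**Figure D1:**
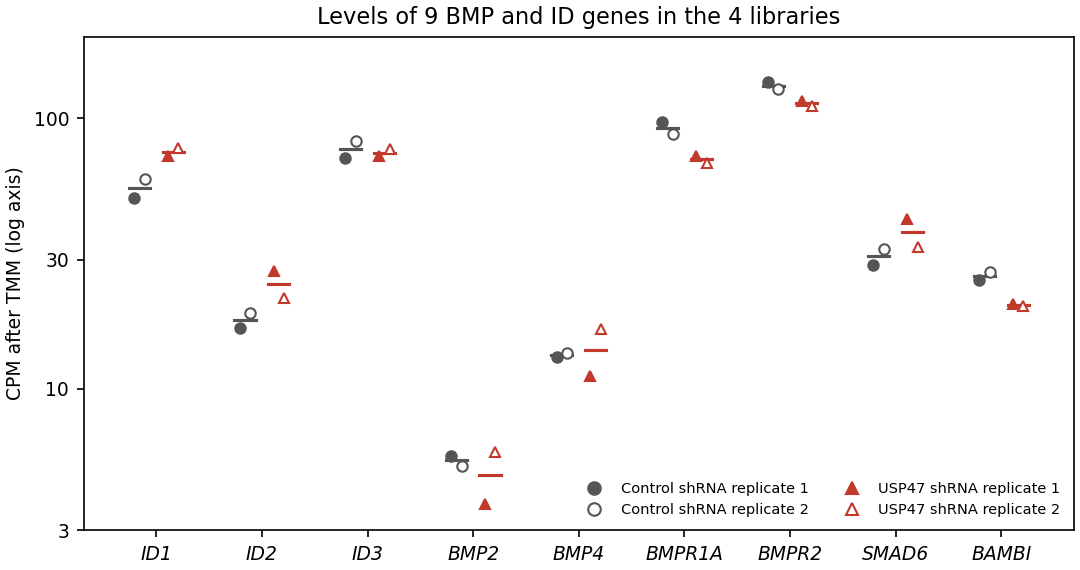
Level of each of the 9 tested BMP and ID genes in the 4 libraries, in CPM after TMM scaling on a log axis. Circles are Control shRNA and triangles USP47 shRNA libraries, filled for replicate 1 and open for replicate 2, and lines are group means. ID1 lies higher in both USP47 shRNA libraries, ID3 overlaps, and BMPR1A, BMPR2 and BAMBI lie lower in both.

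ID1 (ENSG00000125968.7, chromosome 20 of GRCh37, 30193086 to 30194318, plus strand) encodes an inhibitor of differentiation that is a standard readout of BMP signals. It was at 50.6 and 59.8 CPM in the Control shRNA libraries and at 72.5 and 77.6 CPM in the USP47 shRNA libraries. Its lowest knockdown value exceeded its highest control value. The log2 fold change was 0.44 (standard error, SE, of 0.13, 95% interval 0.14 to 0.74, adjusted p = 0.0488), a rise of 35.8%, and 65.8% of genes tested had a smaller absolute change. The call stood close to its threshold: scaling by library size alone gave an adjusted p of 0.0772, keeping genes of any count gave 0.0861, and asking for 10 counts per library gave 0.0504. It was also lost without Control shRNA replicate 1 (log2 fold change 0.33, adjusted p = 0.577) and without Control shRNA replicate 2 (0.56, adjusted p = 0.181).

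ID2 (ENSG00000115738.5, chromosome 2, 8818975 to 8824591, plus strand), a paralog with the same helix-loop-helix domain, had nearly the same fold change as ID1 with a wider spread. It was at 16.8 and 19.1 CPM with Control shRNA and at 27.2 and 21.6 CPM with USP47 shRNA. The groups did not overlap in CPM, but replicate 1 of the knockdown was far above replicate 2. The log2 fold change was 0.45 (SE 0.16, 95% interval 0.10 to 0.80, adjusted p = 0.0796), so ID2 did not pass the test. It was called without USP47 shRNA replicate 2 (log2 fold change 0.60, adjusted p = 0.000107), a fit that called 6516 genes against 3527 with all libraries. On the deposited TPM scale the groups of ID2 overlapped. An antisense gene, ID2-AS1, overlaps ID2 on the other strand, and whether reads were counted by strand is not given in the sources used here.

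ID3 (ENSG00000117318.8, chromosome 1, 23884417 to 23885992, minus strand), the paralog expressed at a level near that of ID1, was at 71.2 and 82.2 CPM with Control shRNA and at 72.4 and 76.9 CPM with USP47 shRNA. The knockdown libraries lay between the 2 controls. Its log2 fold change was -0.04 (SE 0.13, 95% interval -0.33 to 0.25, adjusted p = 0.863), an interval that overlaps that of ID1 and whose upper end lies below the ID1 estimate. Without Control shRNA replicate 2 the estimate turned to 0.06, and without USP47 shRNA replicate 1 to 0.01. ID4 (ENSG00000172201.6, chromosome 6, 19837601 to 19842428, plus strand) was not distinguishable from 0 at this depth.

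The ratio of ID1 to ID3 reads within a library does not depend on how libraries are scaled against each other. It was 0.711 and 0.728 with Control shRNA and 1.00 and 1.01 with USP47 shRNA. As a share, ID1 took 41.5% (95% exact Clopper-Pearson interval 39.4% to 43.7%) and 42.1% (40.3% to 43.98%) of the reads of both genes in the Control shRNA libraries. It took 50.02% (48.2% to 51.8%) and 50.2% (48.1% to 52.4%) in the USP47 shRNA libraries, so the libraries within a group agree within counting error while the intervals of the groups do not meet. These intervals cover counting error only. Over all genes tested, the 2 libraries of a group differed by more than counting error gives. The chi-square per degree of freedom was 5.33 with Control shRNA and 18.6 with USP47 shRNA. The pair was chosen after the values were seen. Of the 6 pairs of members compared only ID1 to ID2 overlapped between the groups, and the share over all pairs of genes was not computed. For single genes, the groups did not overlap in CPM for 61.0% of all genes tested. The mean log2 ratio was -0.48 ± 0.024 (SD, n = 2) with Control shRNA and 0.0076 ± 0.0094 (SD, n = 2) with USP47 shRNA, a ratio 1.40 times higher. An exact permutation test of both sides gave p = 0.333 (0.400 after Benjamini-Hochberg adjustment over the 6 pairs of members compared), and 0.333 is the smallest p that 2 libraries against 2 can give, so the design cannot pass a threshold here.

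**Figure D2:**
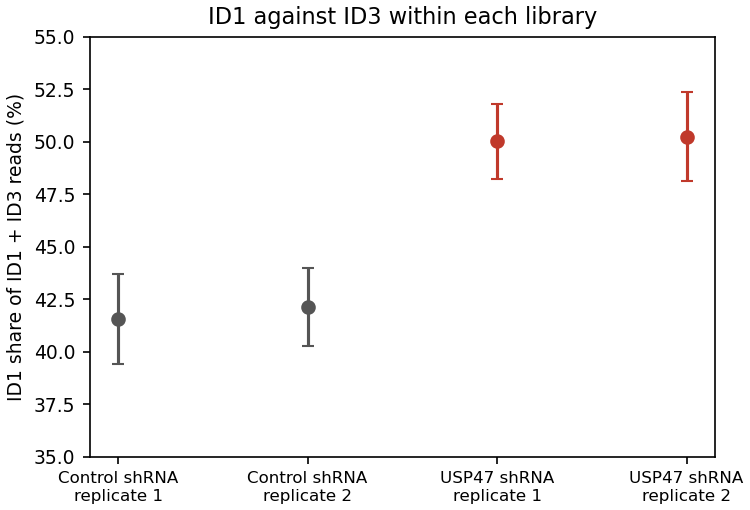
Share of ID1 among the reads of ID1 and ID3 together in each library, in percent on an axis from 35% to 55%, with bars for the 95% exact binomial interval of counting error. The Control shRNA libraries sit at 41.5% and 42.1% and the USP47 shRNA libraries at 50.02% and 50.2%.

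Pairs with ID2 were less even between the knockdown libraries. The ratio of ID2 to ID3 was 0.236 and 0.232 with Control shRNA and 0.375 and 0.281 with USP47 shRNA. ID1 to ID2 overlapped between the groups, with 3.01 and 3.14 against 2.67 and 3.59. The summed level of the 4 ID genes was 129 and 132 TPM with Control shRNA and 162 and 125 TPM with USP47 shRNA, so this sum overlapped between groups while its makeup differed: ID1 made up 46.5% and 47.1% of the sum with Control shRNA against 52.8% and 54.5% with USP47 shRNA, and ID3 made up 44.9% and 44.4% against 36.2% and 37.0%.

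BMP2 (ENSG00000125845.6, chromosome 20, 6748333 to 6760893, plus strand) and BMP4 (ENSG00000125378.11, chromosome 14, 54416454 to 54425479, minus strand), closely related secreted ligands, did not pass the test. BMP2 was at 5.66 and 5.2 CPM with Control shRNA and at 3.75 and 5.85 CPM with USP47 shRNA, a log2 change of -0.20 (SE 0.23, 95% interval -0.71 to 0.31, adjusted p = 0.579). BMP4 was at 13.1 and 13.6 CPM with Control shRNA and at 11.1 and 16.7 CPM with USP47 shRNA, a log2 change of 0.04 (SE 0.19, 95% interval -0.39 to 0.47, adjusted p = 0.911). In both genes the control libraries stood close together in CPM and the knockdown libraries lay on either side of both. On the TPM scale both knockdown libraries of BMP2 lay below both controls, and the groups of BMP4 overlapped. The direction of each estimate turned when a knockdown library was left out: BMP2 was at 0.12 without USP47 shRNA replicate 1 and BMP4 at -0.26 without USP47 shRNA replicate 2. For BMP4 it also turned with library size alone (-0.04).

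BMPR1A (ENSG00000107779.7, chromosome 10, 88516353 to 88692582, plus strand), a type I receptor kinase, was at 96.6 and 87.8 CPM with Control shRNA and at 72.5 and 68.4 CPM with USP47 shRNA. Both knockdown libraries lay below both controls. The log2 fold change was -0.39 (SE 0.13, 95% interval -0.67 to -0.11, adjusted p = 0.0615), short of the threshold. Over the fits without 1 library, the log2 fold change of BMPR1A ranged from -0.46 to -0.32. BMPR2 (ENSG00000204217.8, chromosome 2, 203241050 to 203432474, plus strand), the type II receptor that activates it, was at 136 and 128 CPM with Control shRNA and at 116 and 111 CPM with USP47 shRNA. Here too the knockdown libraries were the lower ones in CPM, at a log2 change of -0.22 (SE 0.13, 95% interval -0.50 to 0.06, adjusted p = 0.254). On the TPM scale the groups of BMPR2 overlapped, at 16.7 and 13.8 with Control shRNA and 14.2 and 10.1 with USP47 shRNA. Over the scalings, filters and tests tried with all 4 libraries, and over each fit without 1 library, both receptor genes kept a log2 fold change below 0.

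The inhibitors differed in sign. SMAD6 (ENSG00000137834.10, chromosome 15, 66994574 to 67075187, plus strand), the gene with the palindrome shown above, was at 28.8 and 32.9 CPM with Control shRNA and at 42.4 and 33.4 CPM with USP47 shRNA. Replicate 2 of the knockdown was barely above the higher control. The log2 fold change was 0.30 (SE 0.15, 95% interval -0.04 to 0.64, adjusted p = 0.202), and on the TPM scale the groups overlapped. Over the fits without 1 library, the log2 fold change of SMAD6 ranged from 0.12 to 0.46. BAMBI (ENSG00000095739.7, chromosome 10, 28966439 to 28971861, plus strand), the pseudoreceptor, was at 25.2 and 26.9 CPM with Control shRNA and at 20.5 and 20.3 CPM with USP47 shRNA. Its knockdown libraries were close together and below both controls, at a log2 change of -0.35 (SE 0.13, 95% interval -0.65 to -0.06, adjusted p = 0.0969). Over the fits without 1 library, the log2 fold change of BAMBI ranged from -0.40 to -0.31. The ratio of SMAD6 to BAMBI reads was 1.14 and 1.22 with Control shRNA and 2.07 and 1.65 with USP47 shRNA, 1.56 times higher on average (exact permutation test, p = 0.333, the smallest possible).

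**Figure D3:**
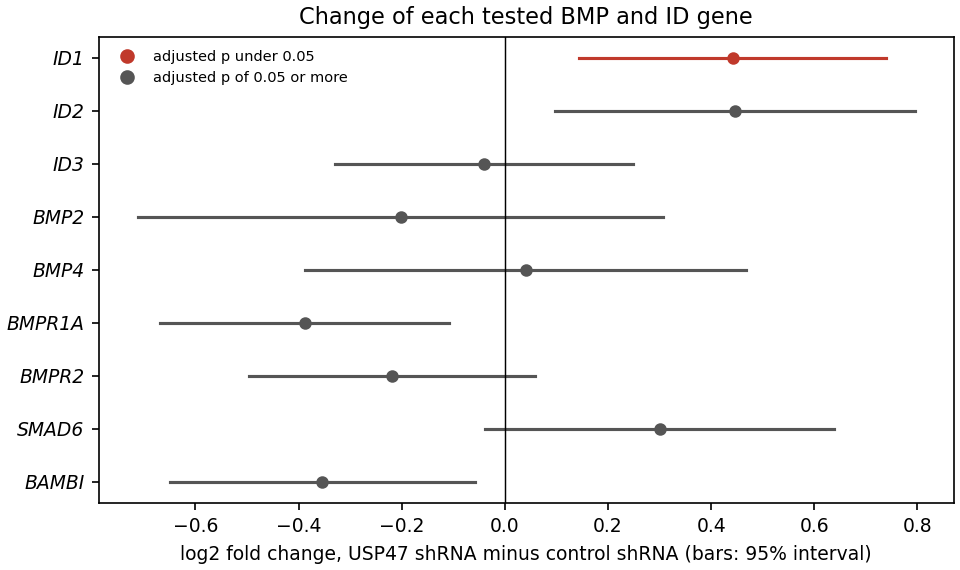
Log2 fold change of USP47 shRNA against Control shRNA for the 9 tested BMP and ID genes. Points are estimates of edgeR's quasi-likelihood fit and bars their 95% intervals, with the gene that passed the adjusted test in red. ID1 and ID2 have nearly the same estimate, 0.44 and 0.45, and the interval of ID3 lies around 0.

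The USP47 shRNA libraries differed in the USP47 left, with a single library at each level, so a relation of the members to that level was not tested. Replicate 2 of USP47 shRNA had 29.5% of the control level of USP47 and replicate 1 had 49.3%. ID1 stood at 131% of its mean control level in replicate 1 and at 141% in replicate 2. ID2 was at 151% and 120%, and SMAD6 at 138% and 108%, so both lay nearer to the control level in the library with the stronger knockdown, and neither passed the test. BMPR1A was at 78.6% and 74.2%, BMPR2 at 88.0% and 83.7%, and BAMBI at 78.7% and 77.8%. ID3 was at 94.4% and 100.2%, BMP2 at 69.1% and 108%, and BMP4 at 83.0% and 124%. Of the 9 members tested, 5 had the higher CPM in replicate 1 of the knockdown, and the share over all genes was not computed.

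Another 59 genes, lists of the rest of the BMP pathway and of E proteins, place the members among the genes they act with. Of these, 47 could be tested, and 6 rose and 4 fell, 21.3% called beside 16.1% of all genes tested. Their median log2 fold change was 0.14, with 29 above 0 and 18 below 0. Of all genes tested, 10788 lay above 0 and 11144 below 0. Such splits depend on the scaling: the median of all genes was -0.0083, and -0.072 with library size alone.

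Among the other ligands, 6 of 12 were tested and none passed, with the smallest adjusted p at 0.0961 for BMP8B in edgeR's test and 1 gene, BMP8B, at an unadjusted p under 0.05, which 32.1% of all genes tested passed. BMP5 was the most abundant of them, at 57.7 and 55.5 CPM with Control shRNA and at 78.4 and 58.1 CPM with USP47 shRNA (log2 fold change 0.27, adjusted p = 0.251). Of the other receptors and coreceptors, 7 of 9 were tested. ACVR2B, a type II receptor shared by activins and BMPs, rose from 28.5 and 25.3 CPM to 43.6 and 41.3 CPM, a log2 change of 0.66 (SE 0.13, adjusted p = 0.0102). RGMA, a membrane-anchored BMP coreceptor, fell from 5.95 and 6.83 CPM to 1.92 and 3.21 CPM, a log2 change of -1.36 (SE 0.25, adjusted p = 0.0066). The antisense gene ACVR2B-AS1 overlaps ACVR2B, and the call of ACVR2B was lost without Control shRNA replicate 1 (adjusted p = 0.0746) or 2 (adjusted p = 0.178). ENG, the most abundant gene of this list per length and a coreceptor best known from endothelium, overlapped between the groups (log2 fold change 0.14, adjusted p = 0.529).

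The SMAD genes that carry the signal did not pass the test. SMAD5, the most abundant, was at 120 and 118 CPM with Control shRNA and at 125 and 126 CPM with USP47 shRNA (log2 fold change 0.08, 95% interval -0.19 to 0.35, adjusted p = 0.693). SMAD1 had a log2 change of 0.36 (adjusted p = 0.112), SMAD9 of -0.18 (adjusted p = 0.501) and SMAD4 of 0.01 (adjusted p = 0.958). ZNF423, a zinc finger protein that acts with SMAD proteins at BMP target genes, fell from 32.5 and 33.4 CPM to 20.2 and 24.3 CPM, a log2 change of -0.57 (SE 0.14, adjusted p = 0.0237). That call was lost without Control shRNA replicate 1 (adjusted p = 0.18) or 2 (adjusted p = 0.183).

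Secreted antagonists and modulators moved in both directions, with 1 of 10 tested genes higher, 2 lower and 7 not called. The shares over all genes tested were 6.52% higher and 9.56% lower. CHRD, which encodes chordin, a protein that binds BMP ligands outside the cell, fell from 2.30 and 2.60 CPM to 0.673 and 0.697 CPM, the largest fall of the 47 genes (log2 fold change -1.84, SE 0.30, adjusted p = 0.00397). It rests on 39 and 51 counts against 14 and 10, and THPO overlaps it on the other strand. SOSTDC1, a secreted antagonist of BMP and Wnt signals, fell from 8.78 and 7.95 CPM to 3.46 and 2.93 CPM (log2 fold change -1.37, SE 0.19, adjusted p = 0.00206). BMPER, an extracellular BMP-binding protein, rose from 17.5 and 18.7 CPM to 37.7 and 26.8 CPM (log2 fold change 0.84, SE 0.17, adjusted p = 0.011). The call of BMPER was lost without Control shRNA replicate 1 (adjusted p = 0.0581). NOG, which encodes noggin, did not pass (log2 fold change -0.19, adjusted p = 0.464), and FSTL1, the most abundant gene of this list, had a log2 change of 0.13 (adjusted p = 0.492).

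Of 9 intracellular inhibitors, all tested, 3 rose and none fell, and 1 rose with library size alone. Of all genes tested, 6.52% were called higher and 9.56% lower. TOB1, an antiproliferative protein that can bind BMP SMADs, rose most, from 56.1 and 52.7 CPM to 94.7 and 113 CPM (log2 fold change 0.93, SE 0.14, adjusted p = 0.00253). SMAD7, the inhibitory SMAD shared by BMP and TGF-beta signals, rose from 15.4 and 16.7 CPM to 31.9 and 23.4 CPM (log2 fold change 0.79, SE 0.17, adjusted p = 0.0128), while its relative SMAD6 was not called. SKI, a corepressor of SMAD proteins, rose from 84.5 and 89.8 CPM to 107 and 138 CPM (log2 fold change 0.49, SE 0.15, adjusted p = 0.0483). With library size alone the calls of SKI (adjusted p = 0.053), SMAD7 (adjusted p = 0.0563) and BMPER (adjusted p = 0.0512) were lost, and that of TOB1 was kept. Without Control shRNA replicate 1 the calls of SKI (adjusted p = 0.415) and SMAD7 (adjusted p = 0.0939) were lost, without Control shRNA replicate 2 that of SKI (adjusted p = 0.232), and SKI was also lost with no filter (adjusted p = 0.0729). FKBP1A, which holds type I receptors inactive and was the most abundant of this list, had a log2 change of 0.21 (adjusted p = 0.351).

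Among 7 other target genes, DLX2, a homeobox transcription factor, rose from 251 and 318 counts to 416 and 380 counts, or from 15.5 ± 0.997 to 23.2 ± 4.58 CPM (SD, n = 2, log2 fold change 0.58, SE 0.17, adjusted p = 0.0399), and its call was lost with library size alone (adjusted p = 0.0621), with no filter (adjusted p = 0.0645) and in the DESeq2 Wald test (adjusted p = 0.0508), as well as without Control shRNA replicate 1 (adjusted p = 0.306) or 2 (adjusted p = 0.141). The other 6 were not called. None of the 7 was called with library size alone, with no filter or in the DESeq2 Wald test. The fit with the replicate block called 5 higher, and it called 3529 of all genes higher, against 1430 without the block. The median log2 fold change of the 7 was 0.32, with 6 above 0, beside -0.0083 for all genes, with 10788 of 21932 above 0. MSX2, the most abundant, was at 88.1 and 102 CPM with Control shRNA and at 125 and 111 CPM with USP47 shRNA (log2 fold change 0.32, adjusted p = 0.139).

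**Figure D4:**
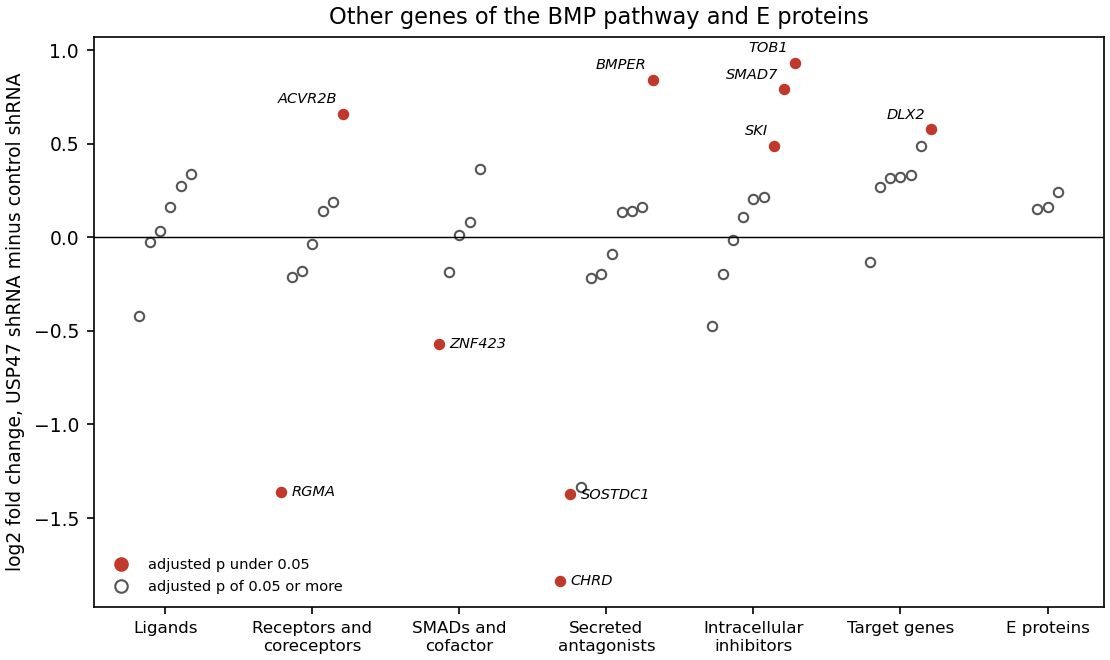
Log2 fold change of USP47 shRNA against Control shRNA for 47 tested genes of the BMP pathway and E proteins outside the 10 members, grouped by role. Red points passed the adjusted test and are named, open points did not. Of the intracellular inhibitors 3 were called, all higher, and of the secreted antagonists 1 higher and 2 lower. Of all genes tested, 6.52% were called higher and 9.56% lower.

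E proteins, the partners that ID proteins bind, did not pass the test. TCF3 was at 348 and 383 CPM with Control shRNA and at 366 and 450 CPM with USP47 shRNA (log2 fold change 0.16, 95% interval -0.17 to 0.49, adjusted p = 0.498). TCF4 had a log2 change of 0.24 (adjusted p = 0.226) and TCF12 of 0.15 (adjusted p = 0.487). Per length, the sum of the 4 ID genes divided by the sum of these 3 genes was 0.893 and 1.02 with Control shRNA and 1.03 and 0.997 with USP47 shRNA, ratios that overlapped between the groups.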

How the data were processed

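The 2 Control shRNA and 2 USP47 shRNA libraries of HGC-27 cells were grouped by their labels. The authors trimmed bases of low quality and aligned with STAR 2.7.5c against hg19. They used SAMtools 1.9 to drop duplicate and poorly mapped reads, and deposited a raw count, an FPKM and a TPM value per gene. The annotation and the use of strand in counting are not given in the sources used here. Removal of duplicates without molecular identifiers can compress differences of abundant genes. Deposited counts were tested, deposited TPM gave levels between genes, and FPKM was not used. Of 63568 identifiers, 55665 matched a symbol.

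Counts were compared with edgeR 4.0.16 in R 4.3.3 (TMM, filterByExpr, robust quasi-likelihood fit, Benjamini-Hochberg adjustment over 21932 genes). Each standard error is the absolute log2 change over the root of its F statistic. Alternatives were DESeq2 1.42.0 (Wald test), other scalings and filters, a block on the replicate number, a threshold of 1 on the log2 change, and fits without each library. The legacy quasi-likelihood method was added after the data were seen. On simulated counts for this comparison (21417 genes, 192 changed), 9.52% of 63 genes with a log2 change of 0.5 were called, as were 76.8% at 1 and 93.3% at 2, and 2.54% of its calls were false.

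The members and lists were chosen with earlier results of these data known, and 1 gene of a list is not reported here. The named genes are all 10 members, USP47, up to 4 called genes of each other list by smallest p and the tested gene of each list with the highest mean TPM. NOG, BMP8B, the other SMAD genes and the other E proteins were named after their values were seen, and so were the pairs of members compared as ratios. Positions are from GRCh37 with GENCODE release 44, and promoter windows from RefSeq (GRCh38.p14).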

Additional observations from a re-analysis of the deposited data

How the results depend on the processing

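With 2 libraries per group a change near 0.5 on the log2 scale was rarely recovered on simulated data. The simulation changed 192 of 21417 genes and used a single dispersion for all of them. Many more genes were called in the data, so the simulated share does not give the power of this comparison. Members that missed the threshold are not shown to be unchanged. Of all genes tested, 3527 were called (1430 higher, 2097 lower). The DESeq2 Wald test called 2288 (1174 lower), a minimum absolute log2 fold change of 1 called 71 (21 higher, 50 lower), and library size alone called 881 higher. The count of members called higher was 0 with library size alone, with no filter, with 10 counts asked of every library, and with the minimum fold change, where USP47 (-1.34) also lost its call, and 1 with DESeq2 size factors, the DESeq2 Wald test and the legacy method. Other BMP pathway genes called higher numbered 6, or 2 with library size alone and 0 with the minimum fold change, which also called 0 lower.

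The replicate number as a block called 7419 genes (3529 higher, 3890 lower), 3 members higher (ID1, ID2, SMAD6), 2 members lower (BMPR1A, BAMBI), and 12 other pathway genes higher and 7 lower. Between the groups, the deviations of the first replicates had a correlation of 0.213. The sources used here do not say whether libraries of equal replicate number were prepared together. Whether they had a batch in common was not tested.

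Without 1 library, genes called ranged from 1233 to 7272 (324 to 3773 higher, 909 to 3576 lower), members called higher from 0 to 3 and lower from 0 to 2, and other pathway genes called higher from 1 to 12 and lower from 3 to 7. The log2 fold change of USP47 ranged from -1.75 to -1.01. A lone library was assumed to vary like the other group. Of the 11 called BMP genes, 7 lost their call without Control shRNA replicate 1 and 5 without Control shRNA replicate 2, and none without a USP47 shRNA library. No called gene reversed under any alternative.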
